A study of Homo sapiens with 12 samples.

Results

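The regions described here are 596 short stretches of chromatin in G401 cells that were open in all 12 libraries of the series. After SMARCB1 was induced, they ranked higher among the regions open in all 12. Joining any peaks that shared 1 bp or more across the 12 lists gave 187088 regions, and 18114 of these held a peak in every library. In each library the 18114 shared regions were ranked by the fold enrichment of their highest peak, and the rank was written as a percentile, from 0 for the weakest to 100 for the strongest. The 596 were chosen by 3 criteria from these measured values: a merged width under 1000 bp, a mean percentile at least 10 points higher in the SMARCB1 than in the GFP libraries, and a lowest SMARCB1 percentile above the highest GFP percentile. They made up 3.30% of the 18058 shared regions under 1000 bp. Since SMARCB1 against GFP chose them, that contrast is given below as a description and was not tested on them as a set. Nearly all of them also fall among regions chosen in 1 drug treatment and tested in the other, further below.

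G401 is a long-established line from a rhabdoid tumour, and all 4 groups carry the same genotype, loss of both SMARCB1 alleles. Doxycycline was given for 24 h in every group and switched on either GFP, the control protein, or SMARCB1, and the vehicle DMSO or dBRD9-A was present as well. This made 3 libraries each of GFP with DMSO, GFP with dBRD9-A, SMARCB1 with DMSO and SMARCB1 with dBRD9-A. The libraries were ATAC-seq libraries, in which a transposase cuts and tags accessible DNA, and the peak lists used here came from nucleosome-free fragments. The labels do not say whether replicates were separate cultures or whether 1 clone or several carried each construct, so p-values measure only the spread between these libraries.

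SMARCB1 is a core subunit of the canonical BAF and PBAF forms of SWI/SNF, the ATP-driven machines that slide and evict nucleosomes. Its loss is the defining lesion of rhabdoid tumours. BRD9 belongs to another form, the non-canonical BAF complex, which lacks SMARCB1, and dBRD9-A is a degrader that removes BRD9. In ATAC-seq a peak's fold enrichment is the number of fragments piled up at its summit, plus 1, over the local background, plus 1. A rise of a region within the ranking therefore says that it gained signal relative to the other shared regions in the same library.

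At the median, the strengthened regions moved from the lower to the upper part of the ranking of shared regions. Their median percentile was 22.2, 20.1 and 22.2 in the 3 GFP libraries with DMSO and 20.7, 18.3 and 19.6 in the 3 with dBRD9-A. It was 74.3, 70.4 and 73.7 in the SMARCB1 libraries with DMSO and 73.2, 73.3 and 74.7 in those with dBRD9-A. All 6 GFP libraries were low and all 6 SMARCB1 libraries high, as the choice of regions requires, and the spread within an induction was small beside the distance between inductions (20.5 ± 1.54 against 73.3 ± 1.54, SD over 6 libraries each). The median gain over regions was 42.5 points, with an interquartile range of 31.9 to 54.1 and extremes of 12.2 and 89.9. For comparison, 4187 shared regions under 1000 bp whose mean percentile differed by no more than 3 points between inductions, called stable here, had median percentiles of 62.0 ± 1.19 and 61.9 ± 0.475 (SD, n = 6 libraries each). A further 272 regions met the mirrored rule and are called weakened; their medians went from 64.6 ± 1.13 to 26.2 ± 0.56.

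**Figure D1:**
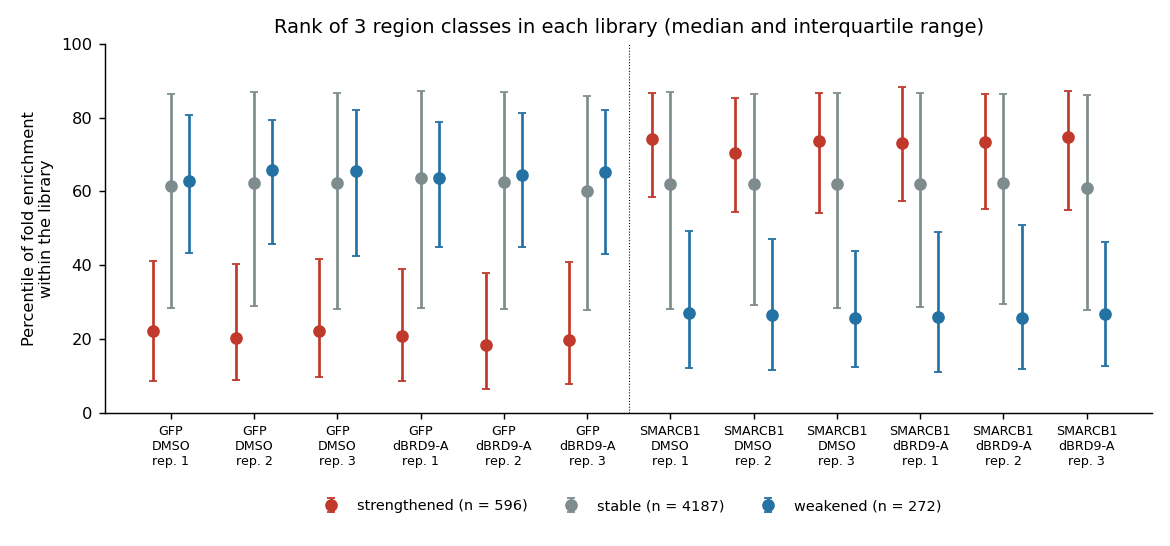
Percentile of fold enrichment within each library for the strengthened, stable and weakened regions; points are medians over regions and bars span the interquartile range, with the 6 GFP libraries left of the dotted line. The strengthened medians sit between 18.3 and 22.2 in GFP libraries and between 70.4 and 74.7 in SMARCB1 libraries.

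On the scale of the deposited fold enrichment, the median over the strengthened regions was higher in every SMARCB1 library than in any GFP library. Their median fold was 10.6, 7.6 and 7.61 in the GFP libraries with DMSO and 6.94, 7.39 and 10.4 in those with dBRD9-A, against 16.2, 16.1 and 16.3 in the SMARCB1 libraries with DMSO and 18.1, 13.7 and 17.3 in those with dBRD9-A. No GFP library reached the lowest SMARCB1 library. The ratio of the geometric mean fold over 6 SMARCB1 libraries to that over 6 GFP libraries had a median of 1.85 and ran from 1.203 to 4.98. It was at least 2 in 235 regions (39.4%) and at least 3 in 33 (5.54%). In log2 fold centred on each library's median over the shared regions, the median SMARCB1 minus GFP difference was 0.84 in DMSO and 0.89 in dBRD9-A, where all shared regions had -0.04 in both.

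Depth, as far as it could be gauged, differed on average between inductions. As a stand-in for read totals, depth was taken from the lowest background pileup in each list, which was 0.0517 ± 0.0171 fragments in GFP and 0.079 ± 0.0254 in SMARCB1 libraries (SD, n = 6 each), with overlapping ranges. The lists held 33428 to 50089 peaks in GFP and 71169 to 96572 in SMARCB1 libraries. At the strengthened regions the median summit held 14, 9, 9, 7, 8 and 15 fragments in the 6 GFP libraries and 26, 26, 27, 32, 19 and 31 in the 6 SMARCB1 libraries, while at the stable regions it was 21.5 ± 5.82 and 22.2 ± 3.54. The local background under the strengthened summits also differed, 0.262 ± 0.0944 fragments in GFP against 0.645 ± 0.143 in SMARCB1 libraries, compared with 0.464 ± 0.145 against 0.527 ± 0.107 at the stable regions; as the denominator of the fold, it makes the difference in fold smaller than that in fragments. A summit of 9 fragments has an exact 95% Poisson interval of 4.12 to 17.1 and one of 26 fragments 17 to 38.1, which covers counting error only, so the rank of a single region in a single GFP library is imprecise. This measure of depth and the number of peaks did not order the libraries alike: SMARCB1 DMSO replicate 2 had a background of 0.0501 and 90143 peaks, SMARCB1 DMSO replicate 1 0.0769 and 76764. The part of depth in the gain was not tested.

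Separation between the inductions, and not the size of the gain, limited the set. A gain of at least 10 points was met by 3249 shared regions under 1000 bp, whereas 603 had every SMARCB1 percentile above every GFP percentile, and 7 of those 603 gained less than 10 points. Another 2 regions met both criteria at 1000 bp or wider. The 3 regions just inside the 10-point threshold were M596 (chr6:64308589-64308816), M595 (chr15:35838005-35838403) and M594 (chr8:144512859-144513181), each with a gain of 12.2 points. Just outside lay chr19:7933669-7933906 with 9.77 points, chr22:31063518-31064099 with 8.64 and chr13:21750547-21750869 with 7.69. These edge regions sat near either end of the ranking: M594 already had a mean percentile of 85.8 in GFP libraries, and M596 rose only from 2.93 to 15.1.

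Regions are numbered M1 to M596 in the order of their gain, with 1-based coordinates in hg19, the build named in the submitters' processing notes. M1, at chr8:10657307-10657624 (318 bp), had the largest gain, 89.9 points. Its fold was 4.66, 6.46 and 6.61 in GFP with DMSO and 3.85, 3.75 and 11.1 in GFP with dBRD9-A, then 29.2, 31.6 and 28.2 in SMARCB1 with DMSO and 32.8, 21.8 and 26.4 in SMARCB1 with dBRD9-A. Behind these stood summits of 4, 6, 6, 3, 3 and 13 fragments in the GFP libraries and 57, 55, 71, 69, 31 and 66 in the SMARCB1 libraries. Its mean percentile was 9 ± 9.44 in GFP and 98.9 ± 0.796 in SMARCB1 libraries (SD, n = 6 each), and its geometric mean fold was 4.98 times higher.

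M3, at chr11:44199971-44200314 (344 bp), was the faintest of the 10 largest gainers in GFP libraries. Its fold was 4.66, 3.84 and 3.78 in GFP with DMSO and 3.76, 2.89 and 4.64 in GFP with dBRD9-A, on summits of 2 to 4 fragments. In SMARCB1 libraries it was 17.8, 21.7 and 16.5 with DMSO and 24.5, 14.6 and 21.4 with dBRD9-A. Its mean percentile was 0.815 ± 0.435 in GFP and 85.3 ± 7.81 in SMARCB1 libraries (SD, n = 6 each), so every GFP library placed it close to the bottom of the shared regions.

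The other 8 of the 10 largest gains were M2 at chr16:11085597-11085992, M4 at chr12:89784548-89784997, M5 at chr11:7633902-7634324, M6 at chr3:23907474-23907934, M7 at chr14:93768239-93768553, M8 at chr6:143206383-143206813, M9 at chr14:23547953-23548224 and M10 at chr16:69951699-69952018. Their gains ran from 80.6 to 85.7 points and their fold ratios from 3.42 to 4.51. M10 had the highest GFP values of the 8 in 1 library, a fold of 10.8 in GFP DMSO replicate 1, against a lowest SMARCB1 fold of 17.2. The 10 lay on 7 chromosomes.

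**Figure D2:**
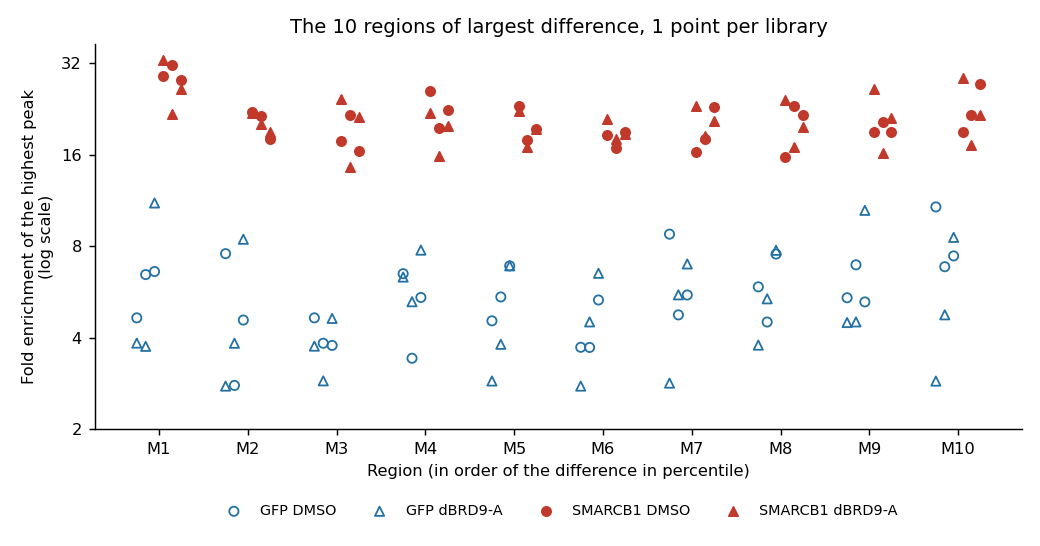
Fold enrichment of the highest peak (log axis) in each of the 12 libraries for the 10 regions of largest gain; open blue symbols are GFP and filled red symbols SMARCB1 libraries, circles DMSO and triangles dBRD9-A. In every one of the 10 the 6 SMARCB1 points lie above the 6 GFP points, and the highest GFP value is M1's 11.1.

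Shared regions that were weak in GFP cells were strengthened more often than strong ones, and with larger fold ratios. Of the shared regions under 1000 bp with a mean GFP percentile below 10, 117 (16.2%) were strengthened. The share was 6.99% (222 regions) from 10 to 25, 3.46% (186) from 25 to 50, 1.33% (64) from 50 to 75 and 0.177% (7) at 75 or more. The median fold ratio was 2.33, 2, 1.73, 1.46 and 1.32 in the same order. A region near the top of the ranking cannot gain many points, so the rule itself favours weak ones. The GFP values that formed these groups are also the divisor of the fold ratio. Both trends are therefore a description and were not tested.

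The endpoint in SMARCB1 cells varied widely. A mean SMARCB1 percentile of 50 or more was reached by 503 regions (84.4%), and 432 (72.5%) crossed from below 50 in GFP libraries. A smaller group of 89 (14.9%) reached 90 or more, and 93 stayed below 50. The 5 highest in SMARCB1 libraries were M89 (chr7:27960708-27961032), M474 (chr8:37773502-37773955), M1, M512 (chr22:41079098-41079380) and M459 (chr1:9170761-9171126), with mean percentiles of 98.1 to 99. M474, M512 and M459 were already in the upper part of the ranking in GFP libraries, with means of 69.7, 71.8 and 67.4. M512 had folds of 23.3, 14.4 and 10.7 in GFP with DMSO, 17.4, 14.1 and 19.7 in GFP with dBRD9-A, 22.5, 26.7 and 27.1 in SMARCB1 with DMSO and 32.5, 26.6 and 32.6 in SMARCB1 with dBRD9-A. On this raw scale its GFP DMSO replicate 1 value lay above its SMARCB1 DMSO replicate 1 value, so the groups overlapped, although its percentiles did not.

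**Figure D3:**
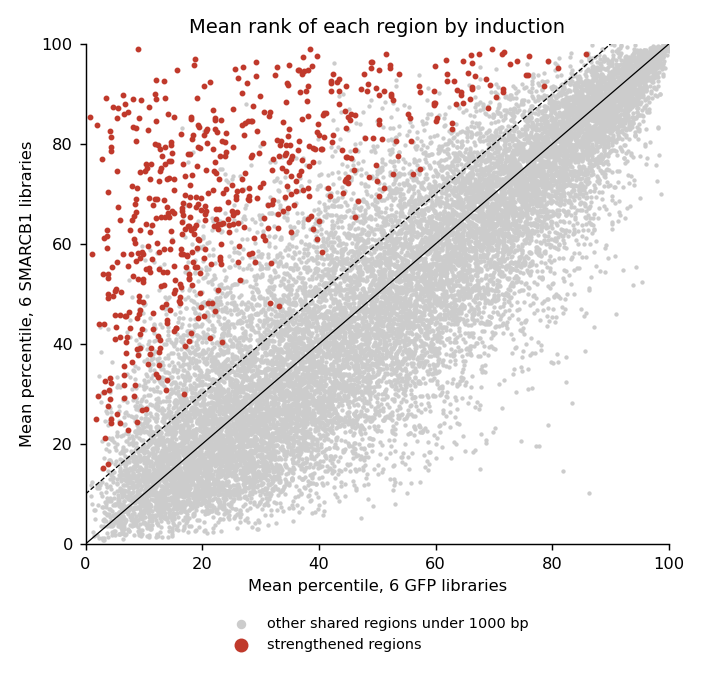
Mean percentile over the 6 GFP libraries (horizontal) against the 6 SMARCB1 libraries (vertical) for the 18058 shared regions under 1000 bp, with the 596 strengthened regions in red; the solid line marks equal ranks and the dashed line a gain of 10 points. Many grey regions lie above the dashed line, since 3249 gained 10 points or more, and most red points lie left of 50 in GFP and above 50 in SMARCB1 libraries.

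The merged intervals were 106 to 987 bp wide with a median of 354.5 bp, longer than the 281 bp of all shared regions under 1000 bp, so they are narrow only by the limit of the rule. The rule used the height of the highest peak and the merged width, and not how the peak's own width or summit changed. These come from the same libraries and the same contrast, so they are described without a test. Peaks at the strengthened regions were wider in SMARCB1 cells: the median peak width was 219, 189 and 183 bp in GFP with DMSO, 165, 162 and 216.5 bp in GFP with dBRD9-A, 283, 284 and 298 bp in SMARCB1 with DMSO and 297.5, 254 and 300 bp in SMARCB1 with dBRD9-A. All SMARCB1 libraries exceeded all GFP libraries. The region's median peak width was larger in SMARCB1 libraries for 94.8% of strengthened regions, 69% of stable and 25.4% of weakened ones. The stable regions, which kept their rank, had library medians of 213 ± 14.5 bp with GFP against 230 ± 10 bp with SMARCB1 (SD over 6 libraries each). The part that peak height and depth have in the widening was not tested.

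Summits mostly stayed in place. In 520 of the strengthened regions (87.2%, against 90.3% of all shared regions under 1000 bp) each library had exactly 1 peak. The median summit position in GFP and in SMARCB1 libraries lay within 25 bp of each other in 395 strengthened regions (66.3%), and the median distance was 12 bp. In all shared regions under 1000 bp 84% lay within 25 bp, with a median of 5 bp. Summits in the 6 GFP libraries of a region also spread more, over a median of 71 bp at strengthened regions and 34 bp at all shared regions under 1000 bp. The part of this spread in the larger distances was not tested. A distance of more than 100 bp was found in 58 strengthened regions (9.73%, against 3.72%), and in 38 of the 58 the GFP summits themselves spread over more than 100 bp.

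In 13 of those 58 the summits were tight within both inductions, spread over no more than 100 bp in each, and yet lay more than 100 bp apart; the next 3 were picked from the 13 after their values were seen. At M15 (chr2:73907101-73907547) the median summit was at position 73907494 in GFP libraries, where all 6 fell within 15 bp, and 284.5 bp away in SMARCB1 libraries, where all 6 fell within 39 bp. Its peaks were 85.5 bp wide in GFP and 362 bp in SMARCB1 libraries at the median, on 11, 2, 5, 3, 5 and 6 fragments and then 27, 30, 21, 36, 25 and 30. At M89 the 2 positions were 121.5 bp apart, with spreads of 27 and 6 bp and median widths of 99 and 317.5 bp. At M474, which had 14 to 30 fragments at its summit in GFP libraries and 43 to 94 in SMARCB1 libraries, they were 211 bp apart, with spreads of 21 and 49 bp. In these regions the strongest point of the SMARCB1 libraries was a different place from that of the GFP libraries, inside the same merged interval.

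**Figure D4:**
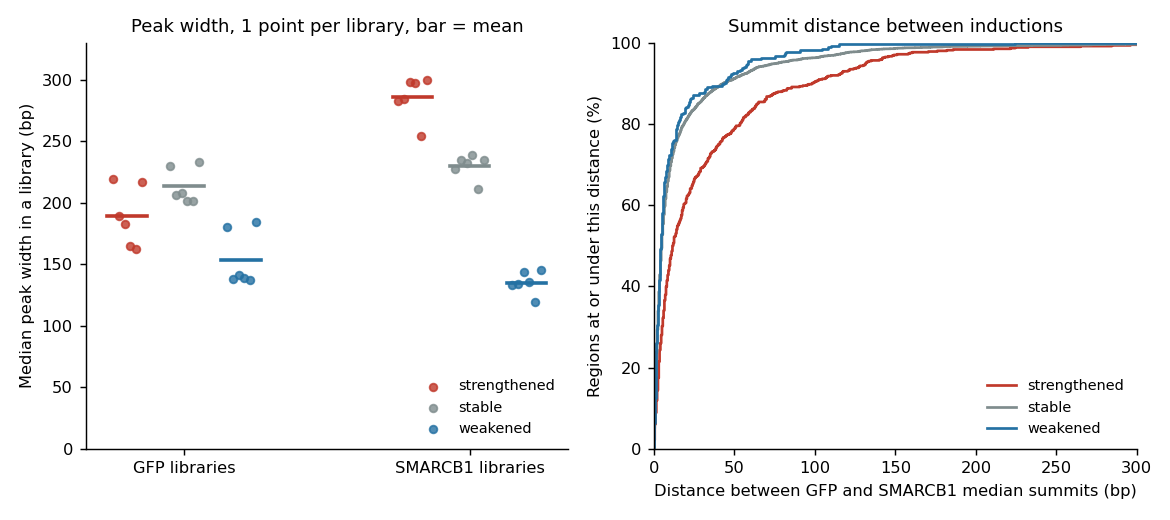
Left, median peak width in each library for the 3 classes, with bars at the mean of 6 libraries; right, the share of regions of each class whose GFP and SMARCB1 median summits lie within the distance on the horizontal axis. Strengthened regions had the widest peaks in SMARCB1 libraries (254 to 300 bp), and their summit distances run longer than those of the stable and weakened regions.

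The strengthened regions were spread over the genome. They lay on chromosomes 1 to 22 and X, with the largest number on chromosome 1 (52, or 2.71% of its 1918 shared regions under 1000 bp, below the 3.30% over all chromosomes). The share per chromosome was highest on chromosome 18 (13 of 238, 5.46%, exact 95% binomial interval 2.94 to 9.16) and lowest among those with any on chromosome 19 (23 of 1371, 1.68%, interval 1.07 to 2.51). Both were picked as the extremes of all chromosomes, and the intervals treat regions as independent. Differences between chromosomes were not tested. On chromosome Y 0 of 8 regions qualified. Of the strengthened regions, 17 lay within 10 kb of another and 74 within 50 kb. Among the 272 weakened regions 4 and 18 lay that near to another weakened one. Among the 4187 stable regions 374 and 1384 lay that near to another stable one. Such counts depend on the number of regions in a set, and clustering was not tested. The closest group was on chromosome 7, where M19, M122 and M577 lay between 46171885 and 46185400. M19 went from a geometric mean fold of 5.88 to 20.8, M122 from 6.84 to 15.4 and M577, the strongest in GFP libraries, from 16.8 to 22.2.

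A region with peaks in all 6 SMARCB1 libraries and none of the 6 GFP libraries, called gained, was within 10 kb of 99 strengthened regions (16.6%). The share was 9.91% for stable, 29% for weakened and 11.8% for all shared regions under 1000 bp. Within 50 kb it was 58.2%, 47.5%, 61.4% and 48.8% in the same order. Weakened regions were thus near gained regions at least as often as strengthened ones. Gained regions come from the same contrast, so these shares are a description.

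The SMARCB1 difference was next compared between the DMSO and the dBRD9-A libraries. Of the 596, 591 gained at least 10 points in the DMSO libraries alone and 594 in the dBRD9-A libraries alone, with medians of 41.3 and 43 points, and 335 gained more in dBRD9-A. The rule, which asks for no overlap over all 12 libraries, fixes most of that. Regions were therefore also chosen in 1 treatment and measured in the other, whose 6 libraries the choice had not used. Either choice still required a peak in all 12. Regions chosen in DMSO included 591 of the 596, and those chosen in dBRD9-A 594. Same-numbered libraries were slightly more alike on average, as given below, and whether they share a batch was not tested. The measured libraries are thus not shown to be independent of the choice.

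Choosing by the same criteria in the DMSO libraries alone gave 1711 regions. In the dBRD9-A libraries 84.6% of the 1711 were higher with SMARCB1 (all shared regions: 44.5%), and 66.9% gained at least 10 points (21.2%). The percentiles of the 3 SMARCB1 libraries all exceeded those of the 3 GFP libraries in 761, or 44.5%, where 9.56% of all shared regions did. With limma on centred log2 fold in those 6 libraries and Benjamini-Hochberg adjustment over all 18114 regions, 283 (16.5%) had an adjusted p under 0.05 and were higher, against a background of 1.95%, and 0 were called lower (limma), against 0.265%. At an unadjusted p under 0.05 in limma 7 were lower, or 0.409%, where 6.34% of all regions were. Without centring on the library median, limma called 81 of the 1711 higher and 88 of all regions. The median gain fell from 27.9 points where they were chosen to 19.8 where they were measured.

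The reverse choice gave similar values. In the dBRD9-A libraries alone 1609 regions were chosen, and in the DMSO libraries 85.5% were higher with SMARCB1 and 69.5% gained at least 10 points. No overlap was found in 763, or 47.4%, against 10.3% of all shared regions. Limma called 245 of them (15.2%) higher, against 1.65% of all, and 0 lower, against 0.48%. At an unadjusted p under 0.05 in limma 10 were lower, or 0.622%, against 7.51% of all. The median gain went from 30.5 to 20.4 points. Regions strengthened in 1 treatment were therefore mostly higher in the other too, by a smaller amount than where they had been selected. By the lowest background pileup, GFP libraries were shallower than SMARCB1 libraries in both treatments on average, with overlapping ranges. The part of depth in these counts was not tested. Leaving out 1 library of the measured treatment lowered the first count to between 152 and 240 (all regions: 180 to 315). The second count fell to between 42 and 155 (all regions: 47 to 182), and the lowest, 42, was without SMARCB1 DMSO replicate 1. Each of these 12 omissions moved its count by more than 1.5 times, except those of GFP dBRD9-A replicate 3 and SMARCB1 dBRD9-A replicate 2.

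**Figure D5:**
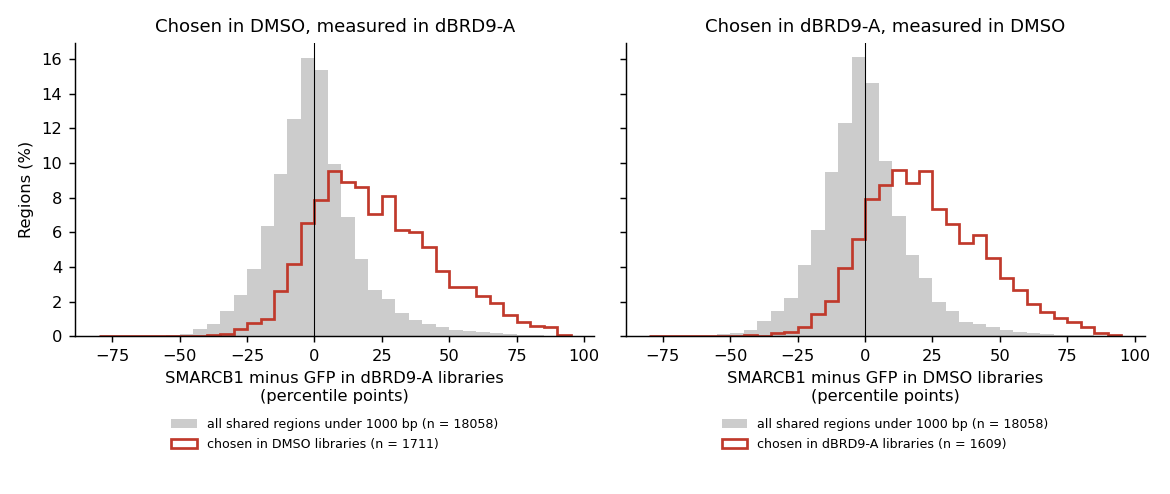
SMARCB1 minus GFP difference in mean percentile, measured in the treatment that was not used for the choice, for the chosen regions (red outline) and all 18058 shared regions under 1000 bp (grey), as a percentage of each set. The chosen regions centre on 19.8 points (left) and 20.4 points (right), with part of each set below 0.

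The effect of dBRD9-A itself was not used by the rule and was tested with limma on the centred log2 fold of all 18114 shared regions, in 1 fit of the 12 libraries, though the demand for no overlap limits how far libraries of 1 induction can spread. In SMARCB1 cells the median dBRD9-A minus DMSO difference over the strengthened regions was 0.01, and -0.02 without SMARCB1 DMSO replicate 2. Of the 596, 0 had an adjusted p under 0.05 in limma, as did 0% of all 18114 regions, and 9 (1.51%) had an unadjusted p under 0.05, where 3.56% of all did. The lowest adjusted p in limma was 0.9999. The typical standard error of a region's difference was 0.21 on the log2 scale, pooled over all 12 libraries and so the same in GFP cells. On simulated data for 18114 regions, limma found 0 of 200 changes of log2 0.5 in this contrast. It found 109 of 200 at log2 1 and 199 of 200 at log2 2. A count of 0 called therefore does not show that smaller effects were absent.

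In GFP cells more of the strengthened regions were lower than higher with dBRD9-A, and none was called. The median difference was -0.05, and 344 were lower and 252 higher (57.7% lower, against 51% of all shared regions). After adjustment limma called 0 of 596, and 0% of all regions, with a lowest adjusted p of 0.241 among the 596. At an unadjusted p under 0.05, 65 (10.9%) were lower where 3.2% of all regions were, and 28 (4.70%) were higher where 3.05% were. Among 4163 other shared regions from the lowest 25% of the GFP ranking, 4.71% were lower and 4.88% higher at that p, and their median difference was 0.00. That set is not matched to the strengthened regions. Its median standard error was 0.26 against 0.21, and 186, 64 and 7 strengthened regions had mean GFP percentiles of 25 to 50, 50 to 75 and 75 or more. With each GFP library left out in turn, the share lower at an unadjusted p under 0.05 stayed between 8.22% and 12.1%. The median difference, however, was between -0.07 and -0.01, and it was nearest to 0 without GFP dBRD9-A replicate 2, which had the lowest background pileup of all 12 libraries, 0.0383. The differences of the strengthened regions spread more in GFP cells (10% and 90% quantiles -0.47 and 0.36) than in SMARCB1 cells (-0.18 and 0.20). For all shared regions these were -0.31 and 0.32, and -0.28 and 0.28. With 1 pooled standard error, shares at an unadjusted p may run high in GFP and low in SMARCB1 cells. This was not tested.

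The difference between the 2 dBRD9-A effects had a median of 0.05 over the 596. Limma called 0 of them after adjustment, with a background of 0%, and at an unadjusted p under 0.05 it was above 0 in 27 (4.53%, against 2.23% of all regions) and below 0 in 10 (1.68%, against 2.08%). An effect of dBRD9-A that differs between GFP and SMARCB1 cells was therefore not shown for any single region.

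Single regions varied more than the medians. The 3 largest rises with dBRD9-A, averaged over the inductions, were at M35 (chr17:48277495-48277786), M107 (chr11:11643508-11643883) and M89. M35 had folds of 6.16, 5.73 and 4.68 in GFP with DMSO and 10.1, 9.66 and 11.4 in GFP with dBRD9-A, which did not overlap, and 22, 19.1 and 18.5 against 29.4, 24.5 and 21.1 in SMARCB1 cells. Its centred log2 difference was 0.93 with a standard error of 0.19 in GFP cells and 0.33 with the same standard error in SMARCB1 cells. The adjusted p in limma was 0.241 and 0.9999.

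M107 was similar in GFP cells and flat in SMARCB1 cells. Its folds were 10.6, 5.37 and 6.41 in GFP with DMSO, 11.5, 11.2 and 19.5 in GFP with dBRD9-A, 24.4, 23.1 and 21.6 in SMARCB1 with DMSO and 28.4, 21.9 and 20.5 in SMARCB1 with dBRD9-A. The difference was 0.95 ± 0.2 (SE) in GFP cells and 0.02 ± 0.2 in SMARCB1 cells, with limma adjusted p-values of 0.241 and 0.9999.

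The 3 largest falls were at M36 (chr4:123719299-123719649), M186 (chr6:10463808-10464584) and M79 (chr7:37071565-37072017). M36 had folds of 18.5, 7.06 and 9.36 in GFP with DMSO and 4.63, 3.75 and 7 in GFP with dBRD9-A, which came close without overlapping. In SMARCB1 cells it had 22.1, 24.5 and 21.7 with DMSO and 22.3, 20.2 and 19.6 with dBRD9-A. Its difference in GFP cells was -1.10 ± 0.23 (SE), with a limma adjusted p of 0.241, and in SMARCB1 cells -0.13 ± 0.23. At M186 and M79 the GFP libraries with dBRD9-A ranged over folds of 3.38 to 8.56 and 3.78 to 6.41, and those with DMSO over 7.6 to 12.7 and 6.22 to 10.9, so both overlapped. These 6 were picked for their size among 596, and none of them passed the adjusted threshold.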

How the data were processed

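The 12 peak lists are MACS2 narrowPeak files. The submitters' processing notes name BWA 0.7.12-r1039, SAMtools 1.2, bedtools 2.24.0, MACS2 2.1.1.20160309, DiffBind and DESeq2 with hg19, without saying which made which file; read counts were not analysed here. Peaks were called by the authors in each library separately. The deposited fold enrichment is a ratio, and the deposited −log10 p and −log10 q values, the lowest −log10 q being 1.30, come from the authors' peak caller. The deposited score and summit offset are the authors' too; the score was not used in a test.

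Summit pileup and background were recovered from fold and −log10 p (whole fragments for 100% of peaks, within 0.001). Differences were tested with limma 3.58.1 in R 4.3.3 on log2 fold centred on the library median, checked on simulated data, with Benjamini-Hochberg adjustment over 18114 regions and a threshold of 0.05. Named regions were the 10 largest gains, 5 highest in SMARCB1 libraries, 3 largest rises and falls with dBRD9-A and 3 on each side of the 10-point threshold. Members and lists were chosen with earlier results of these data known, and choosing in 1 treatment to measure in the other was added after seeing the data. No hg19 genome or annotation was at hand, so genes, motifs and sequences were not analysed here, and the planned gene and motif lists were not used. Alternatives were other scales, filters and ranks, a replicate block and each library left out.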

Additional observations from a re-analysis of the deposited data

Results flagged for a closer look

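Library medians and the named regions were checked for 1 library standing apart from the other 5 of its induction (Dixon's test), in 58 groups of 6 values, where chance flags about 1 in 20. It marked 4. The median percentile of the strengthened regions was lowest in SMARCB1 DMSO replicate 2, at 70.4, against 73.2 to 74.7 in the other SMARCB1 libraries. Their median peak width was lowest in SMARCB1 dBRD9-A replicate 2, at 254 bp, against 283 to 300 bp, and this library had the lowest background pileup of the 6, 0.0487. The fold of M594 (chr8:144512859-144513181) was also lowest there, at 21.3, against 25.6 to 27.4. The region just outside the threshold at chr19:7933669-7933906 had a fold of 7.39 in GFP DMSO replicate 1, against 4.56 to 5.17 in the other GFP libraries.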

How the results depend on the processing

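The number of strengthened regions was 1565 when regions were ranked among all those with a peak in a library, 358 with only peaks of −log10 q of at least 5, and 386 when separation was asked of the fold itself, an alternative added after seeing the data (318 regions met both readings). Other settings gave 492 to 771, and leaving out 1 library 655 to 770. Under dBRD9-A in GFP cells 1 region was called with log2 summit pileup (M387, chr2:86225210-86225715; 13 of all 18114) and 1 with a variance trend (M284, chr16:29302213-29302556; 7 of all), and 0 with each library left out. Of regions chosen in DMSO, limma called 81 in dBRD9-A without centring (88 of all regions) and 118 at −log10 q of at least 5 (157 of all). With 1 library left out it called 152 to 240 (180 to 315 of all). Of those chosen in dBRD9-A, it called 93 at that q (112 of all) and 42 to 155 with 1 library left out (47 to 182 of all). The median SMARCB1 minus GFP difference on summit pileup was 1.14 (DMSO) and 1.25 (dBRD9-A), and the dBRD9-A median in GFP cells ran from -0.0671 to -0.00866 with 1 library left out. In SMARCB1 cells that median, 0.00564, ran from -0.0214 (without SMARCB1 DMSO replicate 2) to 0.029, so its sign turned; the other medians kept theirs. In fits with a replicate block the calls were 304 and 238 for the chosen regions and 0 for the dBRD9-A contrasts in limma. Deviations of same-numbered libraries correlated at -0.04 to 0.18 (mean 0.08, 18 pairs) and of others at -0.14 to 0.10 (mean -0.04, 36 pairs). Same-numbered libraries were thus slightly more alike on average. Serial numbers in the sample titles also run consecutively within each replicate number. The labels do not say what either number marks, so the main fits left the libraries unpaired. Whether same-numbered libraries share a batch was not tested. Planned shares of regions with a motif or near a gene start, and GC content, were not run because no hg19 genome was used here. Low counts at the strengthened regions in GFP libraries, with medians of 7 to 15 fragments at a summit, limit the rank of single regions there. At stable regions the medians were 17 to 29 fragments in GFP and 16 to 26 in SMARCB1 libraries.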
